A study of Mus musculus with 12 samples.

Results

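The genes of the complement and coagulation systems were examined in brain and liver of aged mice after repeated heat exposure. They are 41 genes chosen by symbol from a list of complement factors, clotting factors and their inhibitors, and all 41 were found among the 25239 genes of the count table. The mice were male, wild type (WT), of the strain C57BL6/J and 24 months old. Control mice are labelled as such with no further treatment given, and Heat Stress mice were kept at 40 °C and 60% relative humidity for 3 hours a day on 15 days. Messenger RNA was sequenced in 3 libraries per group and tissue, 12 in all. The series gives 3 animals per group, so brain and liver libraries may come from the same mice, but the labels do not tie them to a mouse. The labels give the tissue as brain or liver with no region, and each sample was a piece of whole frozen tissue, so fewer cells of a type and less RNA per cell cannot be told apart.

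Complement and coagulation are cascades of plasma proteases, most of which are made by hepatocytes and released into the blood as inactive precursors. Complement starts on antibody (classical pathway), on sugars (lectin pathway) or on surfaces (alternative pathway), and all routes meet at cleavage of C3, which leads to the membrane attack complex. Coagulation starts when tissue factor meets factor VII or by contact activation, and ends with thrombin, which cuts fibrinogen. In brain, C1q is made by microglia, and tissue factor by astrocytes.

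The labelled tissues carried their defining transcripts. In CPM (counts scaled to the TMM-normalized library size), the summed level of 8 hepatocyte markers was 90193 to 138810 in liver, and that of 5 neuron markers was 4728 to 6456 in brain against 12.9 to 27.8 in liver. Total counts lay between 10466198 and 15609040 per library. Liver control 1 and liver heat stress 2 also held skeletal muscle transcripts, with summed levels of 349 and 2119 CPM for 8 muscle genes, against at most 6.55 CPM in the other liver libraries. Liver control 1 further held 132 counts of the neuronal gene Snap25. The counts of liver members called, their median fold change and the values of some genes are therefore also given without these libraries.

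Start regions of a few members are shown first, chosen because they hold an element known from liver genes or from the heat shock response. A promoter window in the RefSeq table (GRCm38.p6) was found for 30 of the 41 members, and the 250 bases before the start were searched on both strands. The HNF1 element GTTAATNAT was found in 3 of 33 member windows (9.09%) and in 0.737% of all 32851 windows. These are C4bp (chr1:130661619-130661718, minus strand), F13b (chr1:139501607-139501706, plus strand) and Hc (chr2:35061413-35061512, minus strand), whose products are a complement inhibitor, a subunit of the clot cross-linking factor XIII and component C5. The C/EBP element TTGCNNAA was in 6 member windows (18.2%, against 9.56% of all), among them C3 (chr17:57228137-57228236, minus strand), the most abundant member in liver. The heat shock element dyads GAANNTTC and TTCNNGAA were in 6 member windows (18.2%, against 12.8%), among them C1qb (chr4:136886201-136886300, minus strand), a chain of C1q. The 100 bases before each start are printed 5′ to 3′ on the strand of the gene, with the match in capitals.
C4bp: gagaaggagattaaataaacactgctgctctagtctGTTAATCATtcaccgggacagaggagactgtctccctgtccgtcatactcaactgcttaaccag
F13b: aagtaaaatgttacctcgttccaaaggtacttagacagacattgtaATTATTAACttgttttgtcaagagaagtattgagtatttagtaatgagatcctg
Hc: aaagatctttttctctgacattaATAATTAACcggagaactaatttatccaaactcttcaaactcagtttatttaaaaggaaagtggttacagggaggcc
C3: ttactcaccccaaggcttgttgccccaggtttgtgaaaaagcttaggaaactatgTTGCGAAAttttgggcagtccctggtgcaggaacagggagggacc
C1qb: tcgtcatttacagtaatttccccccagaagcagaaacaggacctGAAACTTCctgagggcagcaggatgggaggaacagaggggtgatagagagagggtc
The STAT element TTCNNNGAA was in 4 member windows (12.1%, against 7.02%). Neither the HNF4 element CAAAGTCCA, present in 0.384% of all windows, nor the unfolded protein response element TGACGTGG, present in 0.563%, was found in a member window. These matches describe letters only, and the motifs overlap no other motif in the stretches printed.

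In control mice the members were mostly liver genes. With an adjusted p under 0.05 and a log2 fold change past 1 (edgeR quasi-likelihood test over 15824 genes), 36 of the 41 were higher in liver, where 27.5% of all genes were. Another 2 were higher in brain, where 37.2% of all genes were. Levels of genes are compared here as CPM per kilobase of exon, on the scale of the 12-library normalization. C3, the central component, reached a mean of 978 in control liver and 0.509 in control brain. Kng1, the kininogen from which bradykinin is cut, reached 830 and 0.0301, and the sugar-binding lectin Mbl2 reached 658 and 0.0144. These were among the highest liver levels of the list.

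The exceptions were F3, Thbd and the chains of C1q. F3, tissue factor, stood at 14.4 CPM per kilobase in control brain and 2.97 in control liver, a log2 difference of -2.28 (SE 0.21, adjusted p = 2.54e-07 by edgeR). Thbd, thrombomodulin of the vessel wall, stood at 2.11 and 0.714, a log2 difference of -1.55 (SE 0.52, adjusted p = 0.0142 by edgeR), with an adjusted p of 0.0602 without brain control 1 and of 0.0543 without liver control 3. The 3 chains of C1q did not pass the test. C1qa was at 38.9 in brain and 43.9 in liver, C1qb at 42.4 and 36.5, and C1qc at 18.6 and 19.3, and their adjusted p values by edgeR lay between 0.232 and 0.757. Thus in control brain the chains of C1q led the list, followed by F3 and by C4b at 7.92.

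**Figure D1:**
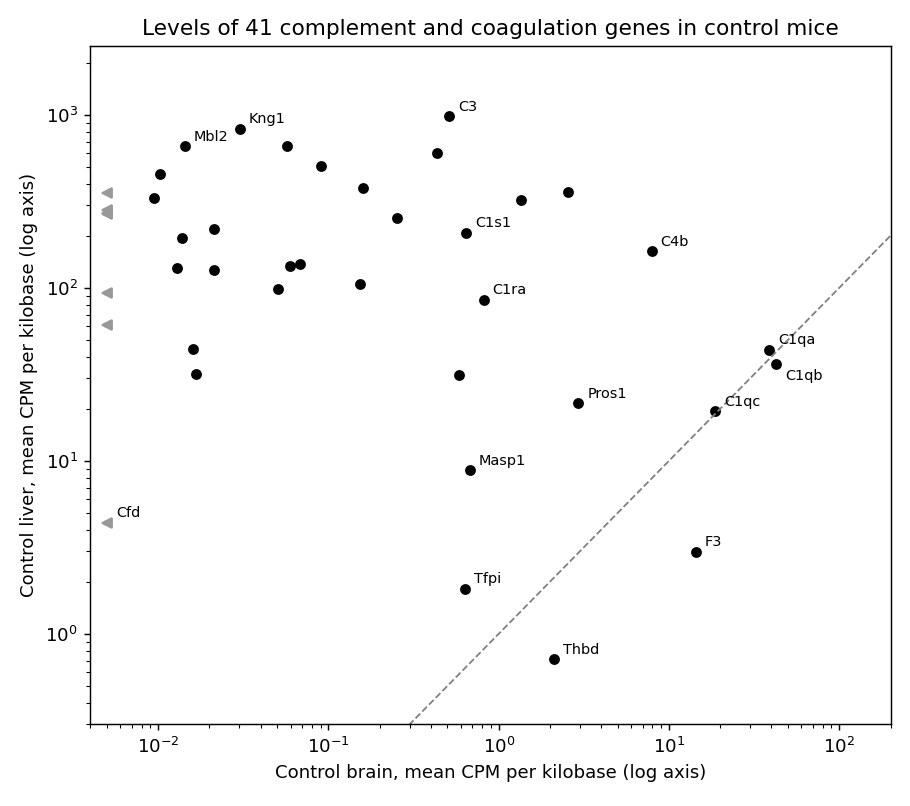
Mean level of each of the 41 members in control brain (x axis) and control liver (y axis), in CPM per kilobase on log axes. Grey triangles at the left edge are members with no count in control brain, and the dashed line marks equal levels: C1qa, C1qb and C1qc lie near it, F3 and Thbd below it, and the others above it.

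Of the 41 members, 25 were too low in brain to be tested. The largest count of any of them in a brain library was 13, 13 members never exceeded 3 counts there, and Cfd and F13b had none. A count of 0 allows a share of up to 3 counts of the total, which covers counting error only. The untested members include every member of the alternative pathway (Cfb, Cfd), of contact and intrinsic coagulation (F9, F11, F12, Klkb1, Kng1), of the common pathway (F2, F10, F13b) and of fibrinolysis (Plg, Serpinf2). The others are Mbl1, Mbl2, Masp2, Hc, C6, C8a, C8b, C9, Cfi, C4bp, F7, Proc and Serpinc1.

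In heat stress brain, 0 of the 16 tested members passed an adjusted p of 0.05, as did 0% of all 14806 genes tested (edgeR). DESeq2 called 618 genes in brain at that threshold, none of them a member, but gave an adjusted p to only 5 members (C1qa, C1qb, C1qc, C4b and F3). At an unadjusted p under 0.05, 0 members were higher and 2 were lower, where 10.0% of all genes were higher and 10.0% lower. No tested member had its 3 heat stress values all above or all below the control values, which 24.9% of all genes had. Their log2 fold changes ran from -0.997 to 0.60, with a median of 0.02 against 0.00 for all genes, and 9 of the 16 were positive.

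The 2 lower members were C1ra and C1s1, the proteases that C1q carries. Brain C1ra was at 5.00, 1.92 and 3.72 CPM in controls 1 to 3 and at 2.03, 1.79 and 1.70 in heat stress 1 to 3, a log2 fold change of -0.96 (SE 0.36, adjusted p = 0.206 by edgeR). C1s1 was at 3.98, 1.40 and 3.40 in controls and 1.11, 1.61 and 1.70 in heat stress, a log2 fold change of -0.997 (SE 0.41, adjusted p = 0.226 by edgeR). For both genes controls 1 and 3 lay above every heat stress library, while control 2 lay among them. Without control 2 the adjusted p values by edgeR were 0.0567 for C1ra and 0.0596 for C1s1, and without control 1 the log2 fold changes were -0.62 and -0.71. With each of the 6 libraries left out in turn, an unadjusted p under 0.05 was kept in 2 fits for C1ra (without control 2 or heat stress 1) and in 1 for C1s1 (without control 2), and C1s1 also lost it with the replicate number as a block. Both genes have near copies in the mouse, C1rb and C1s2, and how shared reads were counted is not given in the sources used here.

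Endothelial markers were also lower in heat stress brain, with control 1 highest and control 2 above every heat stress library in their sum. Summed over Pecam1, Cdh5, Cldn5, Kdr and Flt1, they were at 206, 103 and 118 CPM in brain controls and 68.7, 85.4 and 66.8 in heat stress, and 5 of the 5 had a lower value with an unadjusted p under 0.05 (0 with an adjusted p under 0.05). The 7 choroid plexus markers summed to 91.5, 96.0 and 170 in controls and 62.4, 77.6 and 34.7 in heat stress, with 3 lower at that threshold. No defining marker of either list was at 0. Their part in the values of C1ra and C1s1 was not tested.

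The chains of C1q itself, the most abundant members in brain, did not pass the test. C1qa was at 54.6, 69.5 and 53.2 CPM in brain controls and 65.8, 67.6 and 62.2 in heat stress, a log2 fold change of 0.14 with a 95% interval from -0.14 to 0.43. Without control 2 it was higher at an unadjusted p under 0.05, where 13.6% of all genes were. Its log2 fold change was then 0.27 (SE 0.113, adjusted p = 0.168 by edgeR), against 0.09 without control 1 and 0.07 without control 3. C1qb was at 62.9, 76.0 and 63.5 against 65.1, 74.3 and 68.6, and C1qc at 53.5, 60.8 and 43.5 against 52.6, 55.2 and 50.9. In all 3 genes control 2 was the highest library and the groups overlapped. The 7 microglia markers summed to 380, 442 and 327 in controls and 360, 423 and 395 in heat stress, which also overlapped, with control 2 highest. At an unadjusted p under 0.05, 2 of the 7 were higher (Aif1, log2 fold change 0.77, and P2ry12, 0.46) and 1 was lower (Csf1r, -0.56). In Aif1, P2ry12 and Csf1r the groups did not overlap, as in 24.9% of all genes, and none of the 7 was at 0. Their part in the levels of C1q in brain was not tested.

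Of the convertase components, C3 was at 5.14, 3.75 and 2.59 CPM in brain controls and 2.77, 2.78 and 1.98 in heat stress (log2 fold change -0.61, SE 0.31, adjusted p = 0.298 by edgeR). Only control 3 lay within the heat stress values. Without control 1 the log2 fold change of C3 was -0.33, and without control 3 it was -0.83 (SE 0.297, adjusted p = 0.325 by edgeR), lower at an unadjusted p under 0.05. C4b, which shares most of its sequence with C4a, was at 68.9, 51.4 and 77.1 in controls and 47.3, 70.1 and 70.5 in heat stress, and the groups overlapped widely. Masp1, a protease of the lectin pathway, was at 11.5, 9.16 and 8.42 in controls and 12.83, 11.02 and 10.96 in heat stress (log2 fold change 0.26, SE 0.17, adjusted p = 0.428 by edgeR), with control 1 among the heat stress values. C8g, a subunit of the membrane attack complex, was at 0.754, 0.960 and 1.13 CPM against 1.38, 1.07 and 1.13, near the lowest level that was tested.

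Several members were highest in a single brain library, heat stress 2. Tfpi, the inhibitor of the tissue factor pathway, was at 5.14, 5.85 and 4.13 CPM in brain controls and 3.97, 13.8 and 5.10 in heat stress. F3 was at 52.4, 56.5 and 50.4 against 55.2, 72.5 and 53.8, and Serpind1, heparin cofactor II, at 4.25, 4.01 and 4.78 against 4.52, 9.14 and 3.59. In each of these genes heat stress 2 was the highest of the 6 libraries. Serping1, the C1 inhibitor, was at 10.6, 8.12 and 7.37 against 6.28, 15.8 and 3.40, and Pros1, protein S, at 18.1, 18.7 and 15.8 against 16.3, 22.0 and 15.9. Thbd, named after its values were seen, was at 15.2, 11.1 and 8.18 against 5.36, 20.8 and 4.25. Again heat stress 2 was highest while the other heat stress libraries lay near or below the controls. In all, heat stress 2 was the highest library for 7 of the 16 members (43.8%), the seventh being C2, and for 21.9% of all tested genes. Transcripts of hepatocytes were also high in this library, which was the highest for 7 of the 8 markers (Ttr was the exception), with Alb at 3.15, 2.88 and 0.567 CPM in controls and 3.88, 9.58 and 0.850 in heat stress. The 8 acute phase markers summed to 2.67, 2.27 and 2.19 CPM against 2.86, 4.93 and 1.51, with 5 of the 8 highest in heat stress 2. Some of these rest on few counts in heat stress 2, such as Orm1 with 1, Saa1 with 3 and Serpina1a with 2. Heat stress 2 was the highest library for 0 of the 5 endothelial and 0 of the 7 choroid plexus markers. No marker of these lists was at 0 in all 6 libraries, and their part in the members' values was not tested.

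Since these 7 genes are those highest in brain heat stress 2, leaving it out had to lower their fold changes, and the values without it are a description. Thbd then had a log2 fold change of -1.26 (SE 0.30), Serping1 of -0.84 (SE 0.31) and C2 of -0.78 (SE 0.32), and these 3 were the members lower at an unadjusted p under 0.05, where 6.23% of all genes were lower and 4.85% higher. The adjusted p by edgeR was 0.445 for each. Tfpi went from 0.60 to -0.15, Serpind1 from 0.41 to -0.10, and F3 from 0.19 to 0.038. Of the 16 members tested with all libraries, 9 had a positive fold change, and 4 of the same 16 had one without heat stress 2. With Masp2 and F12, which passed the filter in that fit, it was 6 of 18, or 33.3%, where 49.2% of all genes had one.

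**Figure D2:**
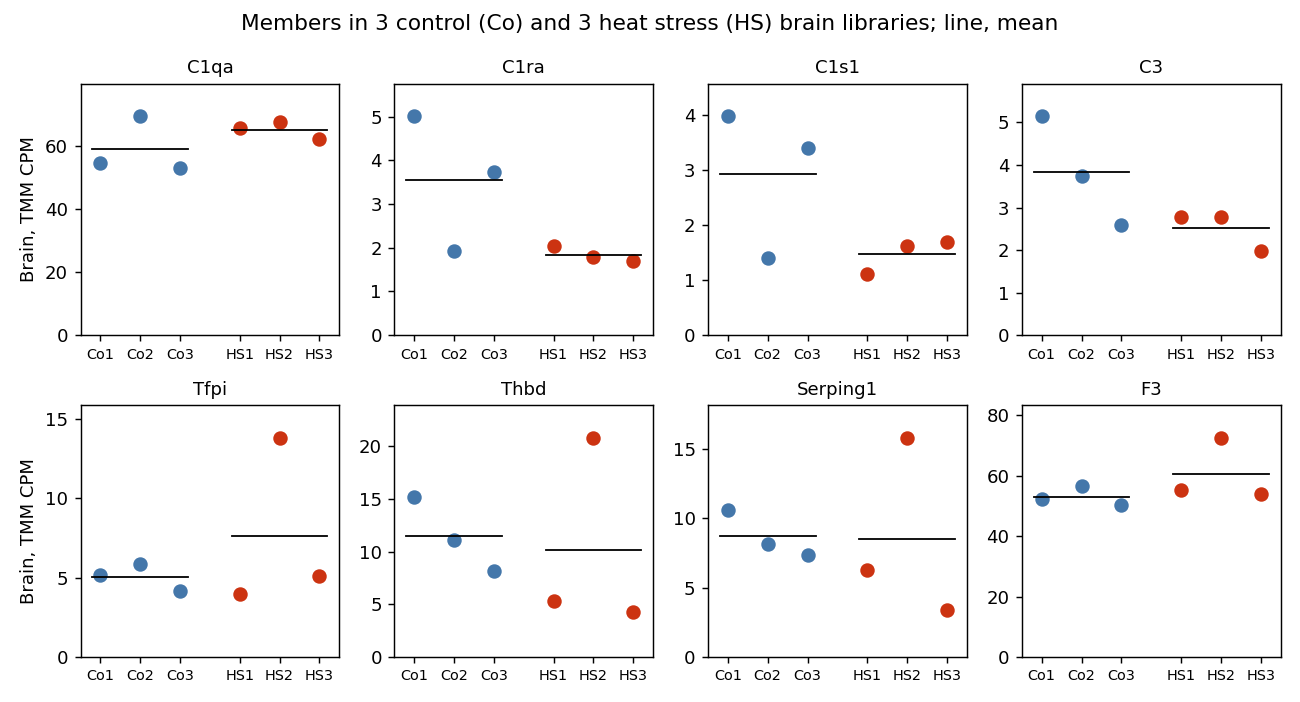
CPM (y axis, from 0) of 8 members in each of 3 control (Co, blue) and 3 heat stress (HS, red) brain libraries, with a line at each group mean. C1ra and C1s1 are high in Co1 and Co3, and Tfpi, Thbd and Serping1 are highest in HS2 at 13.8, 20.8 and 15.8 CPM.

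Other genes of both cascades that are not members numbered 60, of which 33 were tested in brain. At an unadjusted p under 0.05, 0 were higher and 6 lower, none with an adjusted p under 0.05, where 10.0% of all genes were lower. Of the 33, 25 had a negative fold change (median -0.20), as had 7449 of all 14806 genes tested. F5, the cofactor of factor Xa, was at 10.7, 7.24 and 15.9 CPM in controls and 3.60, 5.82 and 1.42 in heat stress (log2 fold change -1.63, SE 0.44, adjusted p = 0.170 by edgeR). Vwf, the platelet adhesion protein of endothelium, was at 24.0, 7.85 and 12.1 against 4.62, 8.51 and 5.10 (-1.27, SE 0.40, adjusted p = 0.172 by edgeR). The groups did not overlap for F5, and for Vwf control 2 lay below heat stress 2. Itgam and Itgb2, the chains of complement receptor 3, had log2 fold changes of -0.50 and -0.58. Itgam was at 28.3, 28.4 and 20.7 CPM in controls and 16.0, 19.3 and 19.5 in heat stress, and Itgb2 at 7.75, 6.72 and 6.48 against 4.15, 5.46 and 4.34. The groups did not overlap for either gene. Of the 33, 2 lay all above and 4 all below the controls, where 24.9% of all genes did either. The markers of endothelium and choroid plexus were also lower in heat stress brain, and all 12 had a negative fold change. Their median log2 fold changes were -1.05 for the 5 endothelial and -1.07 for the 7 choroid plexus genes. The microglia markers went both ways. Of these 7, 4 had a positive fold change and 3 a negative one, with a median of 0.18. Csf1r was at -0.56, while Aif1 was at 0.77 and P2ry12 at 0.46. The part of these 3 cell types in the values of F5, Vwf, Itgam and Itgb2 was not tested.

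In liver all 41 members were tested, and 37 had over 100 counts in every library. The smallest count was 7, for Cfd. Of the 41, 0 passed an adjusted p of 0.05, as did 0% of all 12296 genes tested (edgeR). DESeq2 called 61 genes in liver at that threshold, and 0 of the 41 members. At an unadjusted p under 0.05, 0 members were higher and 0 lower, where 2.97% and 2.87% of all genes were. The heat stress values lay all above the controls for 1 member, Masp1, and all below for 0, where 5.38% and 5.73% of all genes did so. A positive fold change was found for 33 of the 41 members (80.5%) and for 51.8% of all genes, with medians of 0.08 and 0.01 on the log2 scale. In the fit of all liver libraries, the 95% interval of the log2 fold change lay within -1 and 1 for 39 of the 41. A change of 2-fold was outside these 39 intervals, and the exceptions were Cfd and Thbd. Without the libraries with muscle transcripts, the fold changes of C2, Kng1 and C3 were larger, as given below.

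The classical pathway members with the smallest p in liver were the chains of C1q. C1qc was at 22.8, 24.6 and 28.8 CPM in liver controls and 36.0, 31.9 and 28.3 in heat stress, a log2 fold change of 0.34 (SE 0.18, adjusted p = 0.901 by edgeR). C1qa was at 26.3, 34.9 and 32.2 against 53.1, 33.9 and 34.1 (0.38, SE 0.22), and C1qb at 26.3, 23.6 and 30.8 against 38.3, 32.1 and 27.3 (0.28, SE 0.19). Without heat stress 1 the log2 fold change of C1qa was 0.11, and without heat stress 2 it was 0.49, while C1qb was at 0.13 without heat stress 1 and 0.38 without control 3. In each, heat stress 1 was the highest library and at least 1 heat stress library lay within the controls. The 6 Kupffer cell markers, of the resident macrophages of liver, summed to 108, 158 and 187 CPM in controls and 272, 165 and 144 in heat stress, also highest in heat stress 1, with 1 of the 6 (Marco) higher at an unadjusted p under 0.05. None of the 6 was at 0, and their part in the levels of C1q was not tested. C1s1, the most abundant of this route, was at 463, 387 and 469 against 441, 430 and 450, with a log2 fold change of 0.00.

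Among the lectin genes, Masp1 was at 64.7, 51.3 and 59.8 CPM in liver controls and 67.8, 73.5 and 71.1 in heat stress (log2 fold change 0.27, SE 0.16, adjusted p = 0.930 by edgeR). The gap between control 1 and heat stress 1 was small beside the spread of the controls. Mbl2 was at 453, 517 and 491 against 440, 466 and 447, a log2 fold change of -0.11, with overlapping groups. Mbl1 had the lowest log2 fold change of all members, -0.33 (SE 0.23). Cfb, of the alternative pathway, was at 1186, 772 and 909 against 838, 901 and 1228, and the groups overlapped widely.

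C3 was at 4141, 2673 and 3309 CPM in liver controls and 3357, 4068 and 5893 in heat stress (log2 fold change 0.40, SE 0.27, adjusted p = 0.936 by edgeR), and its log2 fold change was 0.12 without heat stress 3. C2, which with C4b forms the classical convertase, was at 99.2, 55.8 and 88.0 against 103, 90.7 and 124 (0.39, SE 0.24). For both, control 2 was lowest and heat stress 3 highest, and control 1 lay within the heat stress group. The 6 terminal members had log2 fold changes from 0.00 (C8g) to 0.22 (C6). C8g was at 576, 677 and 584 against 626, 505 and 711. Serping1 was at 645, 478 and 554 against 653, 623 and 770 (0.29, SE 0.20), with control 1 within the heat stress group.

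Of the clotting factors, Kng1 was at 2261, 1397 and 1768 CPM in liver controls and 2452, 2098 and 2627 in heat stress (log2 fold change 0.40, SE 0.23, adjusted p = 0.930 by edgeR). F10, factor X, was at 442, 347 and 417 against 467, 420 and 601 (0.30, SE 0.21), and F7, factor VII, at 101, 60.5 and 66.4 against 78.8, 92.1 and 99.1 (0.24, SE 0.22). Control 2 was the lowest library in all 3 genes. Control 1 lay within the heat stress values for Kng1 and F10 and above them for F7. F2, prothrombin, was at 1752, 1068 and 1391 against 1273, 1400 and 1789. The inhibitor antithrombin (Serpinc1) was at 2265, 1521 and 1889 against 1829, 1918 and 2197, and plasminogen (Plg), the precursor of the enzyme that dissolves clots, at 2063, 1366 and 1486 against 1416, 1630 and 1754. In these 3 genes control 2 was lowest as well, and the log2 fold changes lay between -0.03 and 0.08.

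A single low control thus recurred. Liver control 2 was the lowest library for 22 of the 41 members (53.7%) and for 18.8% of all tested genes, and liver heat stress 3 was the highest for 15 members (36.6%) and for 15.6% of all genes. The median log2 fold change of the 41 members, 0.08 with all libraries, was 0.02 without control 2 and 0.01 without heat stress 3, where 51.2% of members were positive. It was 0.20 without control 1, 0.15 without heat stress 2 and 0.22 without both of these, the libraries with muscle transcripts. The median of all genes lay between -0.01 and 0.02 in these 5 fits. Single genes moved with these libraries too. Without control 2 the log2 fold changes were 0.18 for C2, 0.25 for Kng1, 0.10 for F7 and 0.04 for C6, and without control 1 they were 0.55 for C2, 0.58 for Kng1 and 0.49 for F7. For F10 and Serping1 they were 0.13 and 0.18 without heat stress 3. Mbl1 was at -0.19 without control 2 and -0.50 without control 1. The summed hepatocyte markers were lowest in control 2, at 90193 CPM, of which albumin (Alb) made up 55.9%, and highest in heat stress 3, at 138810 CPM. The 8 markers did not move together. Control 2 was the lowest library for 4 of them (Alb, Apoa1, Ahsg and Serpina1a) and the highest for Apoa2, and heat stress 3 was the highest for 5 and the lowest for Cps1. Their part in the members' values was not tested.

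**Figure D3:**
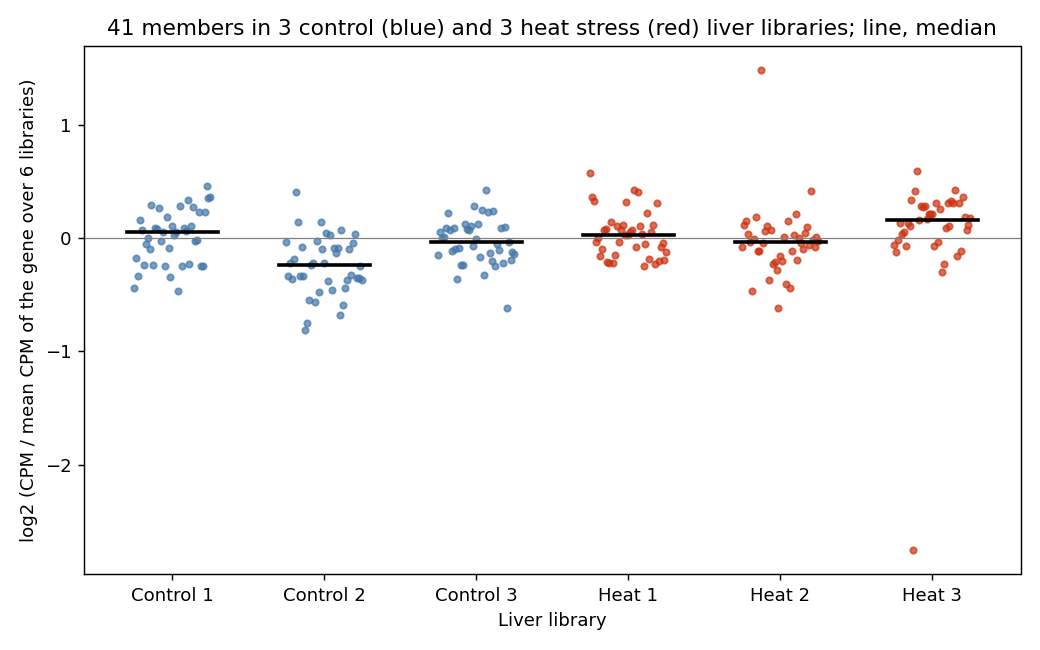
Each point is a member in a liver library, as log2 of its CPM over its mean CPM of the 6 libraries (y axis), with controls in blue, heat stress in red and a line at the median of the 41 members. The median is lowest in control 2, at -0.24, and highest in heat stress 3, at 0.16, and the outlying points above and below are Cfd.

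Cfd, adipsin, is made mainly by fat cells. It was at 3.16, 2.12 and 2.89 CPM in liver controls and 3.20, 10.4 and 0.552 in heat stress, a log2 fold change of 0.80 (SE 0.77). Heat stress 2 was highest and heat stress 3 lowest of all 6 libraries, and without heat stress 2 the log2 fold change was -0.53. Adipoq, another fat cell gene, had 48 counts in heat stress 2 and at most 3 in the other liver libraries. Of the further adipose markers, Plin1 (20 counts) and Retn (35) were also highest in heat stress 2. Cidec was highest in control 1, at 28.1 CPM against 26.1 in heat stress 2, and Lep never exceeded 2 counts. The 5 markers summed to 29.4, 20.8 and 14.5 CPM in controls and 17.2, 33.5 and 11.3 in heat stress. Their part in the level of Cfd was not tested.

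With control 1 and heat stress 2 left out, the libraries with muscle transcripts, 5 members were higher in liver at an unadjusted p under 0.05 and 0 lower, where 5.84% and 4.57% of all genes were. An adjusted p under 0.05 by edgeR was reached by 81 genes there, and by 0 members. These were C2 (log2 fold change 0.64, SE 0.22), Kng1 (0.67, SE 0.24), F7 (0.47, SE 0.19), C3 (0.61, SE 0.27) and F10 (0.47, SE 0.22), with adjusted p values by edgeR between 0.245 and 0.451. With 2 libraries a group, this compares controls 2 and 3 with heat stress 1 and 3. Without control 1 alone, 4 members were higher (Kng1, C2, F7 and F12) and 1 lower (Mbl1), where 7.11% and 5.78% of all genes were.

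**Figure D4:**
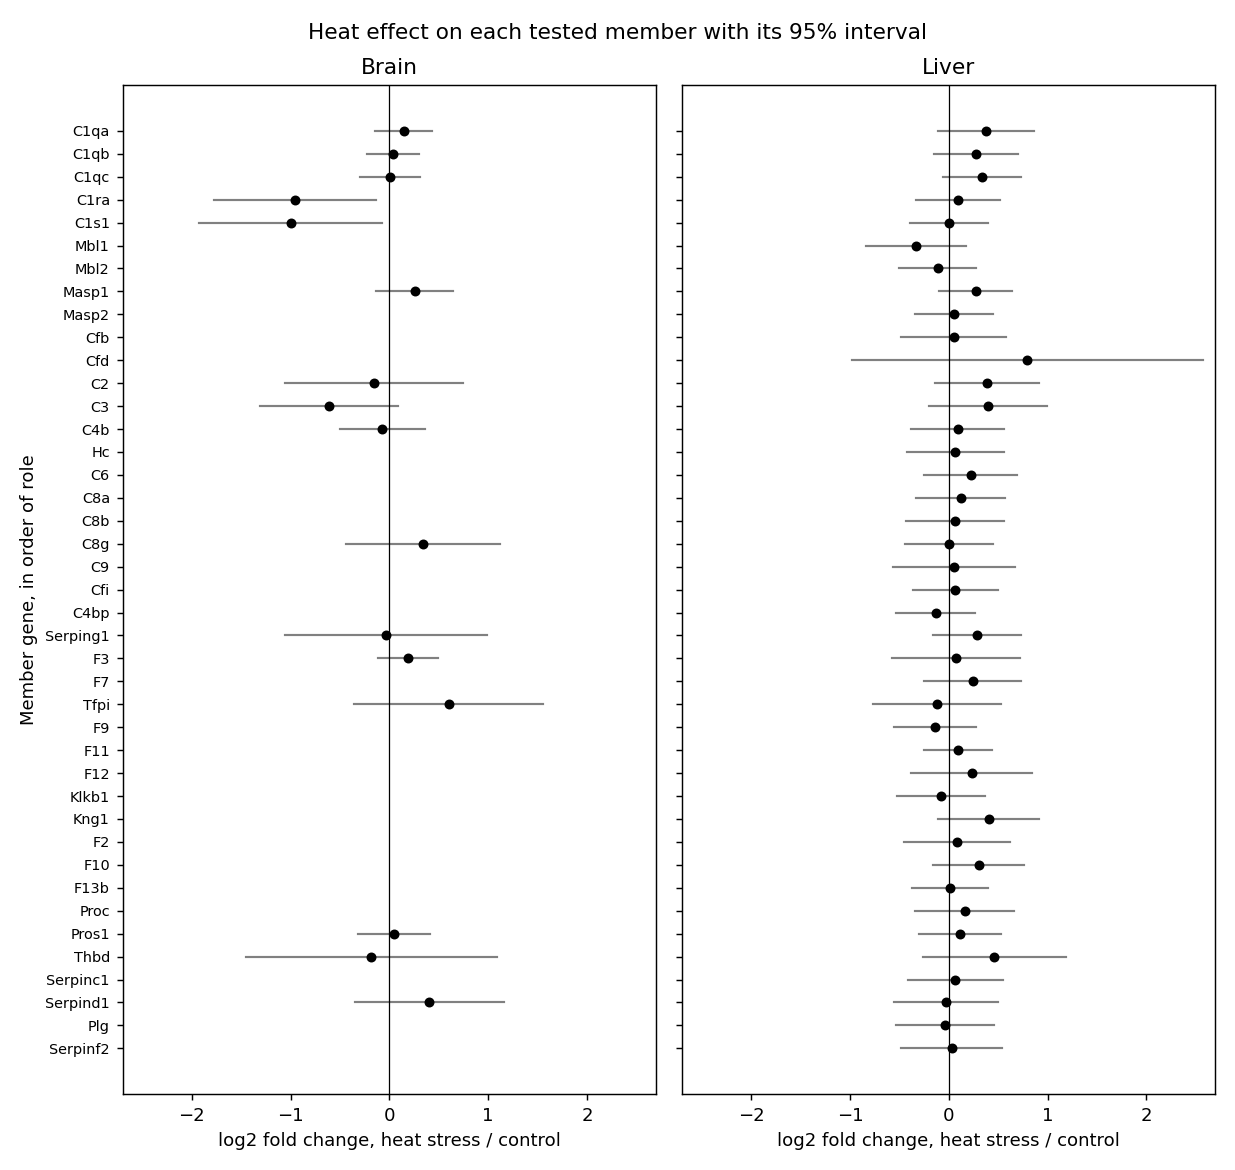
Log2 fold change of heat stress over control (x axis) for each tested member in brain (left, 16) and liver (right, 41), with bars for the 95% interval, genes in order of role. All liver intervals include 0, and in brain those of C1ra and C1s1 do not.

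Of the 60 other genes of the pathway, 43 were tested in liver. At an unadjusted p under 0.05, 2 were higher and 1 lower, where 2.97% and 2.87% of all genes were, and 0 had an adjusted p under 0.05. Itgax, a chain of complement receptor 4, was at 0.387, 0.408 and 0.466 CPM in controls and 1.49, 1.39 and 1.26 in heat stress (log2 fold change 1.71, SE 0.39, adjusted p = 0.408 by edgeR), with no overlap. Tfpi2, an inhibitor of clotting proteases, was at 68.1, 123 and 107 against 85.3, 57.8 and 52.4, a log2 fold change of -0.61, with heat stress 1 within the controls. C4a was at 87.2, 92.6 and 139 against 85.5, 60.6 and 79.4, a log2 fold change of -0.50, with no overlap. Of the 43, 3 lay all above and 3 all below the controls, where 5.38% and 5.73% of all genes did. Acute phase genes, which like complement are made by hepatocytes in inflammation, gave 3 of 8 higher at an unadjusted p under 0.05 (Saa1, Saa2 and Orm2). Heat stress 1 was highest for Saa1 and Saa2, at 129 and 56.5 CPM, and heat stress 2 lay within the controls, at 43.2 and 14.7. For Orm2 the groups did not overlap. The difference of the acute phase genes from the members was not tested.

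The heat effect was also compared between tissues in a fit of all 12 libraries, which treats each library as a separate sample although brain and liver may come from the same mice. No member had an adjusted p under 0.05 for the difference, which 0.00632% of all 15824 genes had. Of the 16 members tested in both tissues, 2 had a higher effect in liver than in brain at an unadjusted p under 0.05 and 0 a lower one, where 3.73% and 5.91% of all genes did. These were C1ra, with a difference of 1.03 on the log2 scale (SE 0.40), and C1s1, with 0.99 (SE 0.43), both with an adjusted p of 0.516 by edgeR. The heat effect of both was negative in brain and close to 0 in liver, at log2 fold changes of 0.09 and 0.00. Without brain control 1, 0 of the 16 had a higher effect in liver at that threshold, where 3.30% of all genes did. Without brain heat stress 2, 6 did (C1ra, C1s1, C2, C3, Serping1 and Thbd), where 4.32% of all genes did, and 0 had a lower one. C2, Serping1 and Thbd are among the genes highest in that library. With 1 library left out, C1s1 lost its unadjusted p under 0.05 without brain control 1 or 3 or brain heat stress 1. It also lost it without liver control 2 or 3 or any single liver heat stress library. C1ra lost it only without brain control 1. Differences of members near 0 counts in brain were not read.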

How the data were processed

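Stranded libraries were made from messenger RNA of both tissues, with 3 libraries in each group. The authors deposited raw read counts per gene symbol for the 12 libraries. The submitters' processing notes name FastQC 0.11.9, Trimmomatic 0.39, HISAT2 2.2.1, featureCounts of Subread 2.0.1, DESeq2 1.22.2 and mm10, while the methods also describe Tophat2 and HTSeq. The deposited tables of the authors' own comparisons were not used. 0 columns of single libraries were left unmapped.

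Heat stress was compared with control by edgeR's quasi-likelihood test (edgeR 4.0.16, R 4.3.3) with TMM normalization, filterByExpr (minimum count 10, minimum total 15) and Benjamini-Hochberg adjustment over all tested genes. The standard error was taken as |log2 fold change| divided by the root of F, and the 95% intervals use the total degrees of freedom of that test. Both tissues were joined in a fit of 4 groups. Exon lengths and tissue levels per kilobase used GENCODE M21 (GRCm38, the same build as mm10), and promoters came from RefSeq. A single value of 3 against 3 mice cannot reach a p under 0.1 in an exact two-sided permutation test. Values per library are given for the 8 tested members with the smallest p in a tissue and the most abundant of each role, and for the 4 other pathway genes with the smallest p. 1 gene that this rule names is not reported here. The members and lists were chosen with earlier results of these data known. Alternatives were other normalizations, DESeq2 1.42.0, filters, blocks, covariates and libraries left out. Procedures were tested on simulated data.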

Additional observations from a re-analysis of the deposited data

How the results depend on the processing

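Under every alternative run (13 in brain, 16 in liver and 17 for the difference between tissues), 0 members passed an adjusted p of 0.05 within a tissue or for the difference, though DESeq2 gave an adjusted p to only 5 members in brain and to 38 of 41 for the difference, and 36 members stayed the count higher in control liver. Members with an unadjusted p under 0.05 varied, as did all genes, of which 4.85% to 13.6% were higher and 4.10% to 13.3% lower over the alternatives in brain, and 1.56% to 7.11% and 1.05% to 5.78% in liver. In brain 1 was higher in the fit of all 12 libraries (Cfi, with at most 2 counts in any brain library) and 0 to 1 with a library left out, and 0 to 3 were lower with a library left out (0 without control 1 or heat stress 3, 3 without heat stress 2). The labels do not say whether replicate numbers pair the mice, and correlations of deviations from means of 3 libraries cannot decide it. Same-numbered deviations correlated at -0.29, 0.19 and -0.20 in brain and -0.58, -0.51 and -0.09 in liver. With the replicate block 1 brain member was lower (C1ra), where 9.42% of all genes were, and in liver 0 were called. In liver 0 to 4 were higher with a library left out (4 without control 1, 1 without heat stress 3), 5 without both libraries with muscle transcripts and 2 with a muscle score as covariate (C1qa and C1qc, where 5.51% of all genes were), and 0 to 1 were lower with a library left out (1 without control 1) and 1 (Mbl1) with the column suffix 2nd as covariate. The labels do not explain that suffix, carried by 1 control and 2 heat stress liver libraries. The share of positive fold changes ran from 33.3% to 82.4% in brain and from 51.2% to 80.5% in liver with a library left out, over the members that passed the filter in each fit, lowest without heat stress 2 in brain and without heat stress 3 in liver. With a library left out, the difference between tissues held 0 to 6 members (0 without brain control 1, 6 without brain heat stress 2, 1 without each in turn of liver controls 2 and 3 and liver heat stress 2 and 3), and 1 to 2 were higher in control brain (1 without brain control 1 or liver control 3). The cause of these shifts was not tested.

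Of the log2 fold changes of named members, 12 of 169 reversed in brain, 29 of 272 in liver and 4 of 136 between tissues. With a library left out, brain ranges were -0.15 to 0.90 for Tfpi, -0.10 to 0.65 for Serpind1, -0.13 to 0.13 for Pros1, -0.014 to 0.13 for C1qb, -0.84 to 0.34 for Serping1 and -0.23 to 0.089 for C4b, and without a turn 0.16 to 0.40 for Masp1, 0.19 to 0.49 for C8g and 0.038 to 0.27 for F3. Liver ranges were -0.15 to 0.22 for Cfb, -0.069 to 0.20 for Serpinc1, -0.081 to 0.051 for C1s1, -0.086 to 0.26 for F2, -0.15 to 0.15 for Plg and -0.13 to 0.13 for C8g. Values near 0 also turned under other settings: C1s1 was -0.015 with RLE, -0.0035 with upper-quartile scaling, -0.017 with DESeq2, -0.022 with all 12 libraries and -0.011 without a filter, and C8g was -0.015, -0.0046, -0.018, -0.017 and -0.010, with -0.0065 under the replicate block and -0.11 with the suffix. Plg was 0.14 without both libraries with muscle transcripts and 0.046 with the suffix. Between tissues C1qc was -0.015 with RLE and -0.025 with DESeq2, and -0.033 to 0.20 with a library left out. In brain 25 members were too low to be tested, at total counts that overlap those of liver.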
